A study of Mus musculus with 16 samples.

Results

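F-box proteins are the substrate-picking subunits of SCF ubiquitin ligases, and 73 of the 21923 genes measured in mouse gastrocnemius were F-box genes other than the 5 ligases usually followed in muscle atrophy. The 73 were taken by their symbols (Fbxl, Fbxo, or Fbxw followed by a number), which matched 78 genes, and Fbxo32, Fbxo30, Fbxo31, Fbxo21, and Fbxo40 were then left out. The rule reads symbols only, and it was set with earlier results of these data known. The set holds 18 Fbxl genes (F-box with leucine-rich repeats), 23 Fbxw genes (F-box with WD40 repeats), and 32 Fbxo genes (F-box with other or no known domains). Among the 53 that could be tested, cachexia was accompanied by a called change in 1 gene, Fbxo6. Over all genes, 4.32% were called up and 5.13% down. Fbxo6 rose in cachectic muscle and fell under amiloride. The comparisons share the cachectic libraries, and each call was lost in some alternative fits.

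In an SCF ligase the scaffold cullin Cul1 holds the RING protein Rbx1 at one end and the adaptor Skp1 at the other, and Skp1 binds the F-box of an exchangeable F-box protein. The F-box protein brings a particular substrate, often a phosphorylated or glycosylated protein, to the ubiquitin-conjugating enzyme, and the ubiquitin chain then marks the substrate for the proteasome. Skeletal muscle is best known for Fbxo32 (atrogin-1), whose transcript rises in many kinds of wasting, whereas the other F-box proteins serve the cell cycle, glycoprotein quality control, the clock, mitochondria, and signaling.

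The samples were 16 gastrocnemius poly(A) RNA libraries, 4 in each of 4 groups of mice bought at 6 to 8 weeks of age. Replicates 1 and 2 of each group were labelled C57BL/6 and replicates 3 and 4 BABL/c (the labels' spelling of BALB/c). NOR mice were injected with PBS and bore no tumor. CAC mice, the cachexia group, carried subcutaneous tumors of LLC lung carcinoma cells (C57BL/6) or CT26 colon carcinoma cells (BABL/c). AM mice carried the same tumors and received 2 mg/kg amiloride, a diuretic that blocks sodium channels and exchangers and is used against exosome release, intraperitoneally each day from day 9. KD mice carried tumors of cells whose Rab27a and Rab27b, GTPases of exosome secretion, had been knocked down by lentiviral shRNA, so the knockdown lay in the tumor and not in the muscle. NOR, CAC, and KD mice received PBS each day from day 9, and all muscles were taken on day 30. Strain and tumor line change together and cannot be told apart, and CAC mice served as the reference for both AM and KD.

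The libraries held 35913190 to 61032708 counts assigned to genes. The 9 muscle fibre markers were abundant in every library, with a summed level of 59470 to 197107 TMM-normalized CPM, where CPM scales counts to library size. A set of 4 libraries (CAC replicate 4, AM replicates 1 and 3, and KD replicate 1) stood apart from the other 12 across the labelled strains. In them 21 genes were over 2-fold above, and 27 genes over 2-fold below, every other library. Gm10260 was at 163 to 312 CPM in those 4 and at 0.887 to 1.90 CPM in the other 12, and Rps2 was at 28.3 to 100.4 against 759 to 1206 CPM. KD replicate 3 held 0 counts of 4 Y-linked genes that reached 4558 counts or more in sum in each other library. The sex of single mice was not labelled. The study's methods name male mice, while its supplement names male and female BALB/c mice for the CT26 tumors. Whether the strain labels of these libraries are right was not tested, and each value given by labelled strain takes the labels as they stand. Lymphocyte markers ranged from 2.42 to 612 CPM in sum and differed widely within every group. Results for Fbxo6 and the number of called members are therefore also given without the 4 libraries. For other genes no values without them are given.

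Levels between F-box genes were compared as FPKM, which accounts for gene length. Of the 73 genes, 54 had enough counts to be tested in at least 1 comparison, 52 in all 6, and 19 in none. The filter keeps a gene with enough counts in either group, so the tested genes are not a picture of all 73. Their mean FPKM over the 16 libraries ran from 0.129 to 65.1 with a median of 4.66, and 44 members were at 1 FPKM or more. The most abundant was Fbxw5 (65.1 FPKM), which targets the growth regulator TSC2, followed by Fbxw4 (38.1), Fbxo6 (35.0), Fbxo9 (33.8), which acts on the mTOR partners TTI1 and TEL2, and Fbxw2 (22.2). Between groups, levels were compared as CPM. Fbxw5 stood at 106.5 ± 8.89 (NOR), 101.9 ± 4.21 (CAC), 95.45 ± 9.06 (AM), and 104.6 ± 14.1 CPM (KD; SD, n = 4), with log2 fold changes of -0.06 for CAC against NOR and -0.09 for AM against CAC (edgeR FDR 0.681 and 0.602). Fbxo9 was at 48.9 ± 7.47, 50.55 ± 12.2, 46.75 ± 4.66, and 46.85 ± 9.83 CPM in the same order. For comparison, the left-out Fbxo40, Fbxo31, and Fbxo32 averaged 123.9, 95.9, and 57.5 FPKM. Fbxw5, Fbxw7, Fbxl2, Fbxl5, Fbxl14, Fbxo3, Fbxo11, and Fbxo22 overlap a gene on the opposite strand and Fbxo24 one on the same strand, and 32.1% of the 31-base words of Fbxw8 and 29.6% of those of Fbxo34 occur in other genes' transcripts, so these counts are less certain.

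**Figure D1:**
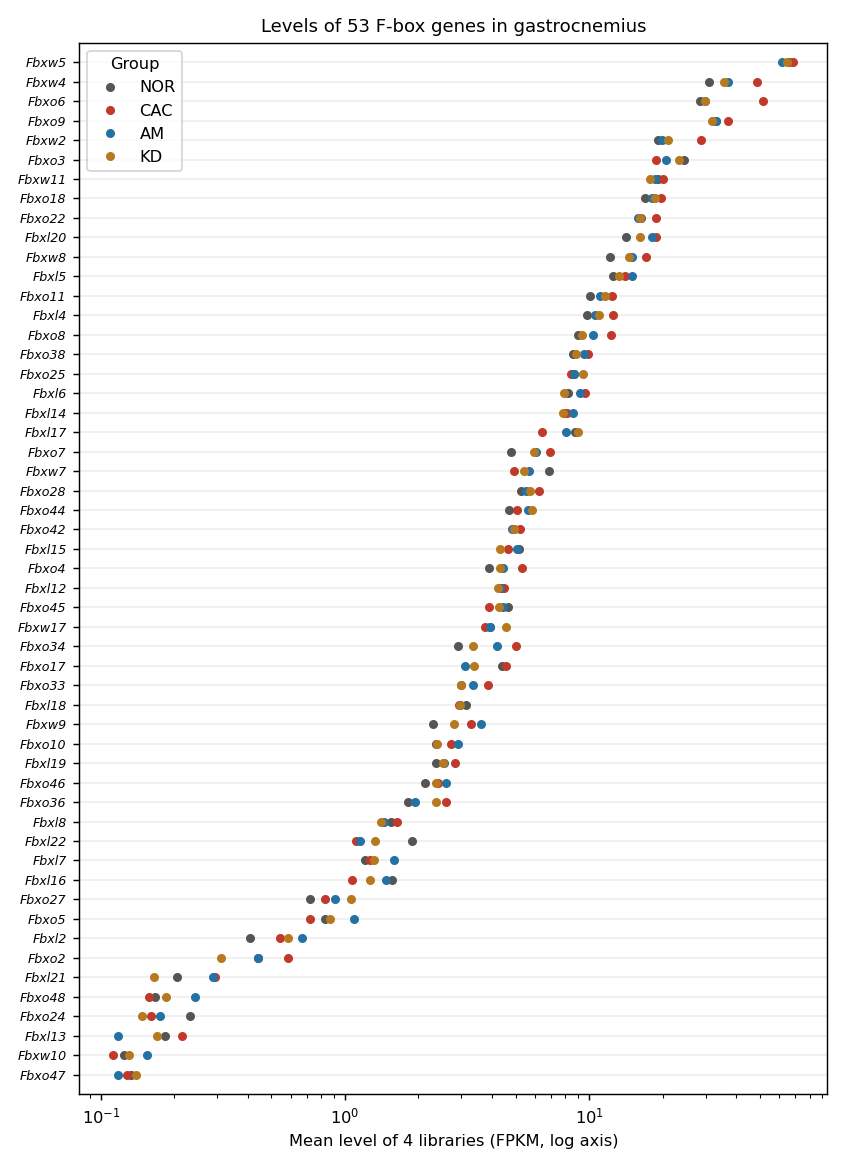
Mean FPKM (log axis) of 53 of the 54 tested F-box genes in NOR, CAC, AM, and KD, 1 point per group of 4 libraries, ordered by the mean of 16 libraries. Fbxw5 leads at 65.1 FPKM, and the CAC points of Fbxw4, Fbxo6, and Fbxw2 lie to the right of the other 3 groups. These FPKM are not TMM-scaled, and Fbxw5 in CAC lies above NOR as FPKM (68.7 against 65.7) and below it as CPM.

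The untested genes were mostly a gene cluster. Of the 14 Fbxw genes on chromosome 9 (109139447 to 109790670, GRCm38), 13 had 0 counts in every library and Fbxw25 had 3 counts in all. Between 15.2% and 74.1% of the 31-base words of these 14 genes occur in other genes' transcripts, so their counts are uncertain. Counting floors apply here, since 0 counts allow up to 3 counts per library. Fbxo43 (Emi2), which holds the egg in meiotic arrest, also had 0 counts, and Fbxo15, Fbxo16, Fbxo39, and the neuronal Fbxo41 had 3, 25, 64, and 88 counts over all libraries.

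The first comparison asked which F-box transcripts differ in cachectic muscle. A gene was called when the false discovery rate (FDR) of edgeR's quasi-likelihood test over all genes was at most 0.05 and the fold change at least 1.5 or at most 0.667. In CAC vs. NOR, 1 of 53 tested members was called up and 0 down, against 4.32% and 5.13% of the 14666 genes tested. At an FDR of at most 0.05 and any fold change, 4 members rose (7.79% of all genes did) and 1 fell (6.17%), that is Fbxo6, Fbxw4, Fbxw2, and Fbxo7 up and Fbxl17 down. Together these are 9.43% of tested members, below the 14.0% of all genes. At an unadjusted p under 0.05 there were 10 members, or 18.9% against 29.1% of all genes. All 4 CAC libraries lay above all 4 NOR libraries for 5 members (12.3% of all genes), Fbxo4, Fbxo6, Fbxo7, Fbxw2, and Fbxw4, and below for 3 (10.5%), Fbxl16, Fbxl17, and Fbxo3. The median size of the log2 fold change was 0.23 for members and 0.27 for all genes, and 45 of 53 members stayed within 0.5. The summed level of the 73 genes was 1119 ± 62.6 CPM in NOR and 1158 ± 40.5 CPM in CAC (SD, n = 4; exact permutation test, two-sided, p = 0.286).

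**Figure D2:**
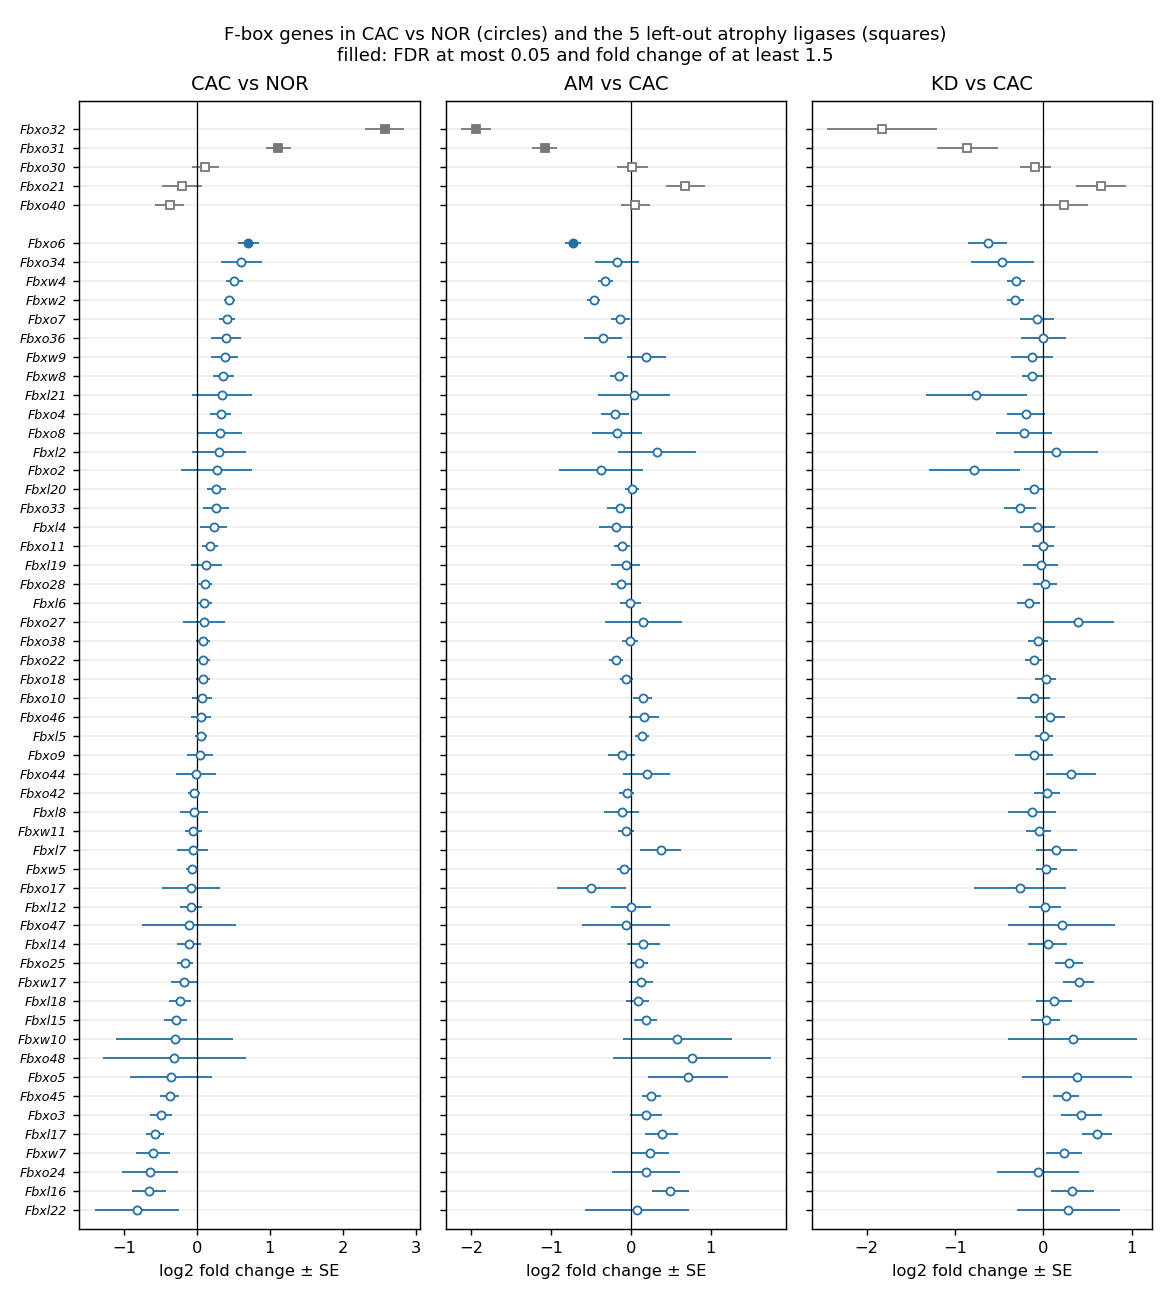
Log2 fold change ± SE (edgeR) of 52 of the 53 F-box genes tested in CAC vs. NOR (circles) and of the 5 left-out ligases (squares) in each comparison with CAC mice, ordered by the first panel, with called genes filled. Among the circles, Fbxo6 alone is filled, at 0.71 in CAC vs. NOR and at -0.72 in AM vs. CAC. Fbxo32 and Fbxo31 are filled in the same 2 panels.

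Fbxo6 (ENSMUSG00000055401, chromosome 4, 148145716 to 148152140, minus strand, GRCm38) encodes a lectin-like F-box protein that recognizes the high-mannose sugar chains of misfolded glycoproteins retrieved from the endoplasmic reticulum. Its level was 40.5, 29.4, 29.4, and 28.7 CPM in NOR replicates 1 to 4 and 51.5, 44.2, 55.2, and 58.1 CPM in CAC. In AM it was 32.7, 30.7, 31.4, and 31.4 CPM, and in KD 23.8, 50.4, 31.5, and 29.6 CPM. Every CAC library was therefore above every NOR and AM library, the AM libraries lay close to each other, and KD replicate 2 was alone at the CAC level. The NOR mean was 31.99 ± 5.69 CPM, the CAC mean 52.2 ± 6.02, the AM mean 31.6 ± 0.845, and the KD mean 33.8 ± 11.5 (SD, n = 4).

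Fbxo6 rose in CAC vs. NOR by a log2 fold change of 0.71 ± 0.14 (SE), or 1.63-fold, with an edgeR FDR of 0.0156. The exact permutation test gave p = 0.0286, the smallest that 4 against 4 allows. The rise was 0.50 in the C57BL/6-labelled and 0.96 in the BABL/c-labelled libraries taken alone (edgeR FDR 0.197 and 0.0976 with 2 against 2), and 0.65 without CAC replicate 4 (FDR 0.0336), the only one of the 4 libraries standing apart in these groups. The difference of the rise between labelled strains (BABL/c minus C57BL/6) was 0.51 ± 0.24 (unadjusted p = 0.0761, edgeR FDR 0.999). Without NOR replicate 2 or 3 it was no longer called (highest edgeR FDR 0.0541). None of the 2278 31-base words of its transcripts occurred in another gene's transcripts, and no other gene in the table overlapped it.

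Cell type markers moved in the same comparison. Summed fibroblast markers were at 925 to 1441 CPM in CAC against 2992 to 4109 CPM in NOR, with 3 of 7 called down. Neutrophil markers were at 101.5 to 247 against 3.82 to 32.9 CPM (4 of 7 called up), and erythroid markers at 3628 to 8616 against 1049 to 1360 CPM (5 of 6 called up). Muscle fibre markers were at 59470 to 132428 against 131306 to 197107 CPM (0 of 9 called), and 2 of 6 endothelial markers and 1 of 7 adipocyte markers were called up and 1 of 10 proliferation markers down. No marker of the slow fibre, macrophage, lymphocyte, and Schwann cell lists was called. No marker of any list was at 0 in every library. Their part in the Fbxo6 rise was not tested, and in bulk muscle fewer cells of a type and less RNA per cell cannot be told apart.

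The promoters of Fbxo6 and Fbxw2 are shown because these 2 members rose in cachexia and fell under amiloride. Each is the RefSeq window (GRCm38.p6, minus strand) from 250 bases before to 50 after the start site nearest the annotated gene start, 5′ to 3′, with motif matches in capitals.
Fbxo6, chr4:148152086-148152385: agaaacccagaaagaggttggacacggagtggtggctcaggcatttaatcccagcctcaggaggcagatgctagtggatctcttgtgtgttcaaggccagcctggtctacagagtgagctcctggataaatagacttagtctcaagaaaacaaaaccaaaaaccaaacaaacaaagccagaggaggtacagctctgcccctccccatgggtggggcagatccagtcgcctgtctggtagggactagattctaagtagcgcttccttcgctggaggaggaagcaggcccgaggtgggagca
Fbxw2, chr2:34826186-34826485: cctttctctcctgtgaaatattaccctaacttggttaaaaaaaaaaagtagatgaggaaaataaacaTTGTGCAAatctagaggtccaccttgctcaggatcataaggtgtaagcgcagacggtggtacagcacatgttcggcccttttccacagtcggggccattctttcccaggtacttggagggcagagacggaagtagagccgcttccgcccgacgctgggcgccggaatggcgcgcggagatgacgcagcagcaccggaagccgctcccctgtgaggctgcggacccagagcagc
The motifs searched on both strands were FOXO (GTAAACA, held by 3.65% of 32851 such windows), C/EBP (TTGCNNAA, 10.8%), STAT (TTCNNNGAA, 8.30%), AP-1 (TGACTCA, 5.20%), and the E-box (CACGTG, 7.15%). The Fbxo6 window held none of these letters, nor did its other RefSeq windows, and the Fbxw2 window held 1 C/EBP match, 183 bases before the start. Of the 55 members with a window, 0 held the FOXO letters, 8 the C/EBP, 6 the STAT, 3 the AP-1, and 4 the E-box letters in at least 1 window. A match is a description of letters and not a bound site.

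Fbxo6 sits in a small chromosome 4 cluster with its closest relatives, and neither of these passed the test. Fbxo44 lies 660 bases beyond its 5′ end (148152800 to 148160482, minus strand) and Fbxo2 next to that (148160621 to 148166424, plus strand). The sugar-recognizing list is a family grouping, and sugar binding by each member was not examined here. It had 5 tested members, of which 1, Fbxo6, rose and 0 fell in CAC vs. NOR. Fbxo44 had a log2 fold change of -0.02 (edgeR FDR 0.981) and 4.33 to 9.29 CPM in CAC against 4.68 to 7.89 in NOR. Fbxo2, a brain glycoprotein ligase, was near the detection limit at 0.444 FPKM on average, with a log2 fold change of 0.27 (FDR 0.771). The other pair, Fbxo17 and Fbxo27 on chromosome 7, gave -0.08 and 0.10 (FDR 0.927 and 0.871), and Fbxo17 ranged from 2.12 to 10.1 CPM within CAC alone.

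Fbxw2, whose known substrates include beta-catenin and SKP2, rose with little spread within groups. Its level was 38.5, 36.8, 40.6, and 37.5 CPM in NOR and 51.5, 50.1, 54.8, and 52.9 CPM in CAC. In AM it was 38.8, 38.8, 40.6, and 33.2 CPM and in KD 38.3, 44.5, 41.1, and 44.0 CPM. The CAC libraries stood above all 12 others. The rise in CAC vs. NOR was 0.45 ± 0.07 on the log2 scale, or 1.36-fold, with an edgeR FDR of 0.00804, under the fold change limit. It was 0.47 in the C57BL/6-labelled and 0.46 in the BABL/c-labelled libraries.

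Fbxw4 (dactylin), named for a mouse limb defect, rose by 0.52 ± 0.11 (edgeR FDR 0.0213). Its levels were 32.5, 24.2, 25.2, and 25.7 CPM in NOR and 37.2, 35.6, 40.1, and 40.9 CPM in CAC, with NOR replicate 1 nearest to CAC. The antisense gene Gm17018 overlaps it and 18.8% of its 31-base words occur in other genes' transcripts, so that its counts are uncertain where strand was not used. The FDR was at most 0.05 in 4 of the 8 fits that leave out 1 library and reached 0.0679 in the others.

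Fbxo7, a partner of PINK1 and parkin in mitophagy and of the proteasome regulator PI31, rose by 0.41 ± 0.11 (edgeR FDR 0.0413). It was at 14.7, 15, 13.3, and 15.1 CPM in NOR and at 21.5, 20.7, 18.2, and 17.0 CPM in CAC. The CAC libraries were all higher, but the test held in only 2 of 8 fits that leave out 1 library (FDR up to 0.117). Fbxl4, which restrains mitophagy, and the iron sensor Fbxl5 stood beside it in the mitochondria and iron list and gave 0.23 and 0.05 (FDR 0.455 and 0.727).

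Fbxl17, which removes wrongly paired BTB-domain proteins, was the 1 member that fell, by 0.57 ± 0.13 (edgeR FDR 0.0219, 0.674-fold). Its level was 47.2, 37.0, 38.0, and 34.2 CPM in NOR and 29.0, 28.5, 23.6, and 24.3 CPM in CAC, without overlap. It was -0.51 in the C57BL/6-labelled and -0.60 in the BABL/c-labelled libraries. The FDR was at most 0.05 in 6 of 8 fits that leave out 1 library, and the highest was 0.0573.

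**Figure D3:**
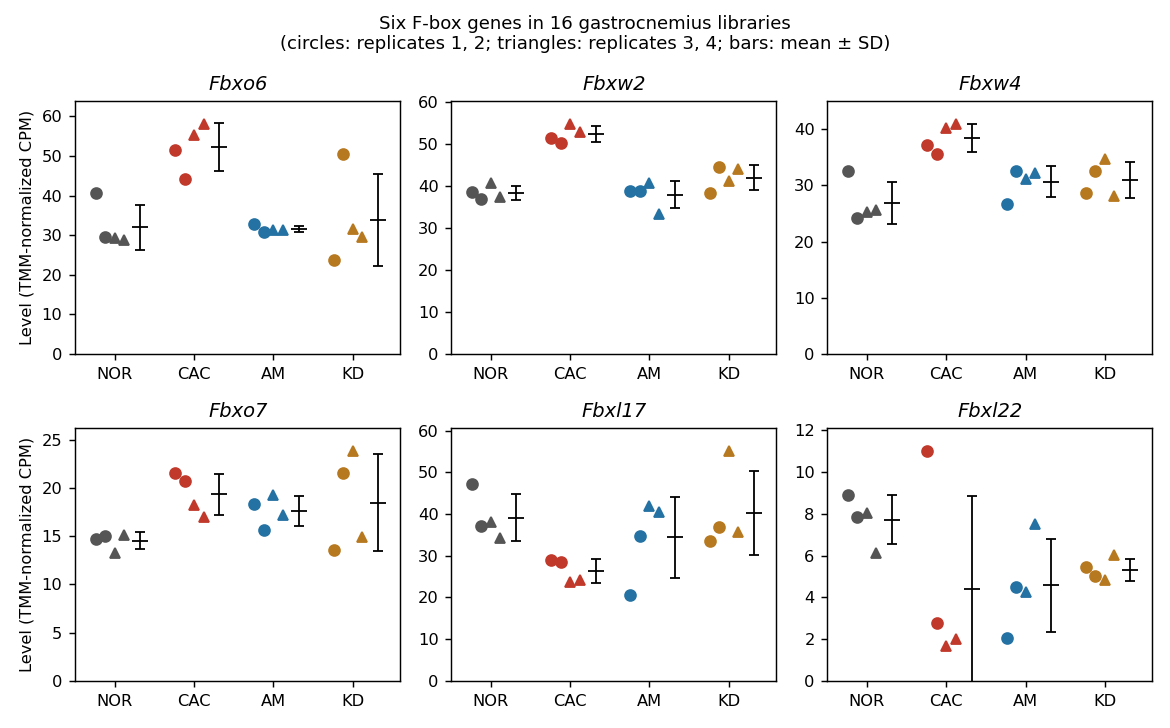
Levels (TMM-normalized CPM) of Fbxo6, Fbxw2, Fbxw4, Fbxo7, Fbxl17, and Fbxl22 in each of 16 libraries by group, circles for replicates 1 and 2, triangles for 3 and 4, and bars for mean ± SD. The 4 CAC points of Fbxo6 and Fbxw2 lie above all NOR and AM points, and CAC replicate 1 of Fbxl22 (11.02 CPM) lies far from the other 3 CAC points. The CAC bar of Fbxl22 is cut at 0.

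The largest log2 fold changes downward did not pass the test. Fbxl22, a sarcomeric F-box protein that acts on alpha-actinin, was at 8.89, 7.87, 8.03, and 6.11 CPM in NOR and at 11.02, 2.78, 1.68, and 2.03 CPM in CAC, so that 3 CAC libraries were low and replicate 1 was the highest of all 16. Its log2 fold change was -0.82 ± 0.58 (edgeR FDR 0.391), and it was called down without CAC replicate 1. The gene overlaps Herc1, which is on the opposite strand. Fbxl16, which binds the phosphatase PP2A, was at 4.72 to 6.79 CPM in NOR and 2.30 to 4.29 CPM in CAC without overlap (-0.65 ± 0.23, FDR 0.0962). It was called down by DESeq2 (adjusted p = 0.0449) and in the edgeR fit of all 16 libraries (FDR 0.0447). Fbxo24, best known from testis, was under 1 CPM in every library (-0.64 ± 0.38, FDR 0.307). Upward, Fbxo34 gave 0.61 ± 0.28 (FDR 0.196), where CAC replicate 3 was at 14.9 CPM and the other CAC libraries were at 6.56 to 8.23 CPM, against 5.01 to 7.61 CPM in NOR.

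Of the other roles, 1 member, Fbxl17, passed the test in CAC vs. NOR. In the cell cycle and growth list, 0 of 4 tested members passed. Fbxw7, which removes cyclin E, MYC, and NOTCH, was at 18.4 to 33.3 CPM in NOR and 12.2 to 22.2 CPM in CAC (-0.60 ± 0.23, edgeR FDR 0.129). It was called down with the labelled strain as covariate (-0.61 ± 0.14, edgeR FDR 0.0267) and with the replicate block (-0.60 ± 0.10, edgeR FDR 0.0286). Fbxo4, a cyclin D1 ligase, did not overlap between the groups, at 5.47 to 6.78 against 6.89 to 9.21 CPM (0.33, FDR 0.177). Fbxo5 (Emi1), the inhibitor of the anaphase-promoting complex, was at 0.661 to 0.889 CPM in 3 CAC libraries and at 2.74 CPM in CAC replicate 3, the CAC library whose summed proliferation markers were highest, at 70.4 against 9.66 to 16.6 CPM. The part of these markers in the Fbxo5 values was not tested. Fbxl8 gave -0.04 (FDR 0.919).

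Fbxl21, an F-box protein of the circadian clock, was at 0.238 FPKM on average (0.34, edgeR FDR 0.644). In the muscle, insulin, and mTOR list 0 of 5 passed. Besides Fbxl22, these were Fbxw8, which acts on IRS1 with Cul7 (0.37, FDR 0.117), Fbxl2 (0.31, FDR 0.647), Fbxo9 (0.05, FDR 0.902), and Fbxo25 (-0.16, FDR 0.373). The synapse list had 3 tested genes, Fbxl20 (0.27, FDR 0.203), Fbxo45 (-0.37, FDR 0.101), and Fbxl16, and 0 passed. In the transcription and chromatin list 1 of 8 fell, Fbxl17. Its other members lay between -0.11 and 0.18, namely Fbxl14, Fbxw11 (beta-TrCP2, the IkappaB and beta-catenin ligase), Fbxo42, Fbxo22, Fbxo38, Fbxl19, and Fbxo11.

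The second comparison asked which F-box transcripts differed after amiloride. In AM vs. CAC, 0 of 54 tested members were called up and 1 down, against 1.63% and 2.03% of 14674 genes. At any fold change, 0 rose (1.76% of all genes) and 2 fell (3.22%), Fbxo6 and Fbxw2. The AM libraries were all above the CAC libraries for 2 members (6.08% of all genes), Fbxl5 and Fbxl16, and all below for 4 (9.61%), Fbxo6, Fbxo22, Fbxw2, and Fbxw4. The unadjusted p was under 0.05 for 3 members, or 5.56% against 21.7% of all genes. The median size of the log2 fold change was 0.16 for members and 0.25 for all genes.

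Fbxo6 fell in AM vs. CAC by 0.72 ± 0.10 on the log2 scale, to 0.606-fold, with an edgeR FDR of 0.00937 and an exact permutation p of 0.0286. The log2 fold change was -0.59 in the C57BL/6-labelled and -0.86 in the BABL/c-labelled libraries (edgeR FDR 0.194 and 0.191). Without the 4 libraries standing apart, which leaves 3 CAC and 2 AM libraries, it was -0.69 with an FDR of 0.129 and no longer called. Nor was it called in the edgeR fit of all 16 libraries (-0.73, FDR 0.05875) or with the replicate block (-0.72, FDR 0.124). Against NOR, the AM mean differed by -0.01 ± 0.12 (edgeR FDR 0.992). Fibroblast markers were at 2181 to 3335 CPM in AM, above CAC, with 3 of 7 called up. Of 7 adipocyte markers 1 was called down, and summed Schwann cell markers were at 346.5 to 659 CPM in AM against 178 to 329 CPM in CAC with 0 of 6 called. The part of these markers in the Fbxo6 difference was not tested.

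Fbxw2 fell by 0.46 ± 0.08 (edgeR FDR 0.0204), and all AM libraries were below all CAC libraries. The FDR stayed at 0.05 or less in 2 of 8 fits that leave out 1 library, with a highest value of 0.0628. Over all 21 alternative fits it did so in 10, with a highest value of 0.296. For Fbxw4 the 4 AM libraries (26.7, 32.6, 31.1, and 32.3 CPM) were also below the CAC libraries, and the log2 fold change of -0.32 ± 0.09 did not pass (FDR 0.0880). Fbxo7 gave -0.13 ± 0.12 (FDR 0.570), with AM at 18.3, 15.7, 19.2, and 17.2 CPM, where AM replicate 2 lay below every CAC library and the other 3 within the CAC range. For Fbxl17, AM libraries were at 20.6, 34.7, 41.9, and 40.4 CPM, and AM replicate 1 lay below every CAC library while the other 3 lay above (0.38 ± 0.21, FDR 0.332). The first and second comparisons share the CAC libraries and are not independent.

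The third comparison asked whether tumors with Rab27 knockdown gave the same picture. In KD vs. CAC, 0 of 52 tested members were called up or down by edgeR, as were 0% and 0.00685% of 14593 genes, the single gene called over all being no member. With no fold change limit these shares were again 0% and 0.00685%. The unadjusted p was under 0.05 for 4 members (7.69%, against 11.2% of all genes), limma-voom called 0, and DESeq2 called 0 while 1 member, Fbxw2, passed its FDR. The KD libraries were all above CAC for 2 members (3.63% of all genes), Fbxl17 and Fbxw17, and all below for 2 (3.37%), Fbxw2 and Fbxw4. Fbxo6 gave -0.63 ± 0.22 (edgeR FDR 0.360), where KD replicate 2 overlapped CAC. In that library Fbxo32 was also high, at 619 CPM against 55.0, 225, and 154 CPM in the other 3 KD libraries and 771 to 1123 CPM in CAC. Fbxw2 gave -0.32 ± 0.09 (FDR 0.302), Fbxw4 -0.31 ± 0.10 (FDR 0.337), and Fbxl17 0.61 ± 0.17 (FDR 0.277), where KD was at 33.5, 36.8, 55.2, and 35.7 CPM and without overlap above CAC. KD libraries spread widely, with fibroblast markers at 872 to 4011 CPM, and a p that misses the threshold does not show that the groups were alike.

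The remaining comparisons called no member with edgeR. Of 54 tested members, 0 were called in AM or KD against NOR, or in AM against KD, and so were 0% of all genes in each. Unadjusted p-values under 0.05 numbered 7, 2, and 0 members (13.0%, 3.70%, and 0% of those tested, against 9.19%, 3.54%, and 1.105% of all genes), and DESeq2 and limma-voom called 0 as well. An effect of labelled strain on the change was found for 0 members in any of the first 3 comparisons (edgeR, FDR at most 0.05), as for 0 of all genes tested, with 1, 5, and 3 members at an unadjusted p under 0.05, against 4.89%, 12.4%, and 5.65% of all genes.

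Of the machinery that F-box proteins plug into, Cul1 and 3 COP9 signalosome genes passed the test, where 14.0% of all genes passed in CAC vs. NOR and 4.98% in AM vs. CAC at an FDR of at most 0.05. Of 5 SCF core genes tested, 1, the scaffold Cul1, rose in CAC vs. NOR by 0.47 ± 0.10 (edgeR FDR 0.0168) and fell in AM vs. CAC by 0.48 ± 0.10 (FDR 0.0374), both under the fold change limit. Cul1 was at 76.3 to 90.8 CPM in NOR, 101.8 to 124 in CAC, and 75.0 to 95.7 in AM, so that CAC overlapped neither group. Skp1a gave 0.30 (FDR 0.140) in CAC vs. NOR. Of 13 genes of the COP9 signalosome, which removes NEDD8 from cullins, and of CAND, which exchanges F-box proteins, 0 passed in CAC vs. NOR and 3 fell in AM vs. CAC, Cops3 (-0.50), Cops4 (-0.48), and the catalytic subunit Cops5 (-0.61, edgeR FDR 0.0208, called). None of 11 neddylation genes, 7 SCF E2 enzymes, and 7 tested F-box proteins under other names (such as Btrc and Skp2) passed an edgeR FDR of 0.05 in the 3 comparisons with CAC. Of the 5 left-out ligases, Fbxo32 (2.58) and Fbxo31 (1.12) were called up in CAC vs. NOR and called down in AM vs. CAC (-1.94 and -1.08), and the other 3 passed in neither.

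A few members followed the 4 libraries that stood apart, as a description chosen after their values were seen. Fbxl2 was at 3.06 to 3.36 CPM in those 4 and at 0.913 to 1.88 CPM in the other 12. Fbxw9 was at 6.99 to 8.57 against 4.00 to 6.09 CPM, and Fbxl7 at 6.84 to 9.22 against 4.19 to 6.72 CPM. These 3 were the members whose 4 values all lay above the other 12, and 0 members had all 4 below. Of the 15062 genes tested in at least 1 comparison, 169 had all 4 values above (1.12%) and 263 all 4 below (1.75%), and of the 54 tested members 5.56% had all 4 above.

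**Figure D4:**
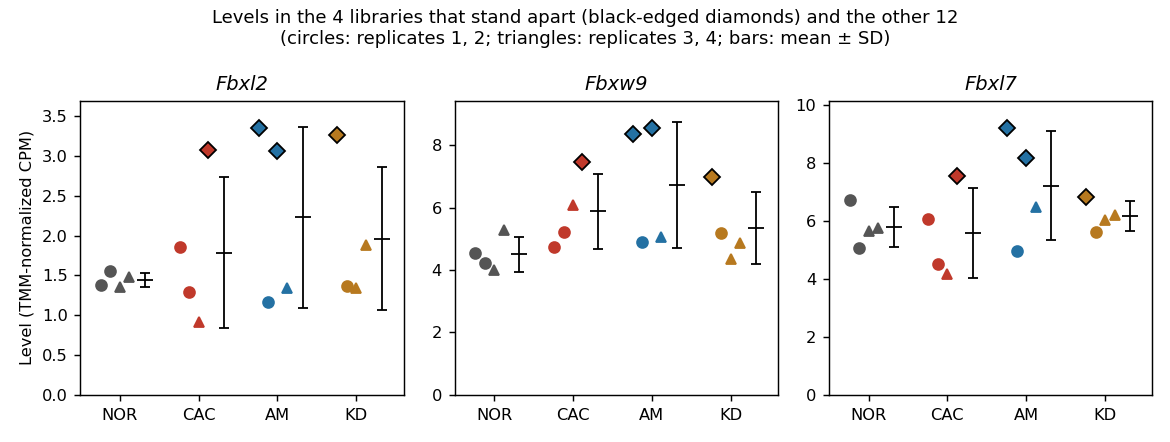
Levels (TMM-normalized CPM) of Fbxl2, Fbxw9, and Fbxl7 by group and library, with black-edged diamonds for CAC replicate 4, AM replicates 1 and 3, and KD replicate 1, circles and triangles for the other libraries, and bars for mean ± SD. Every diamond lies above all 12 other points, at 3.06 to 3.36 CPM for Fbxl2.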

How the data were processed

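Poly(A) RNA of gastrocnemius from 16 mice was sequenced. The deposited table holds raw counts per gene for each library, made by the authors without normalization, and FPKM, which the authors scaled to gene length and library size. The submitters' processing notes name fastp, Bowtie2, HISAT2, StringTie 1.3.1, and the builds mm9 and GRCm38 without their roles, and strandedness is not given in the sources used here. Each column was mapped to a library by its name. Replicates are separate libraries of a group, and p-values set the difference between groups against the spread between replicates. The main test had no strain term, so that spread includes the labelled strain and tumor line.

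The main test was edgeR's quasi-likelihood F test (edgeR 4.0.16, R 4.3.3) with TMM scaling and Benjamini-Hochberg FDR over all genes tested, after filterByExpr had removed genes of low count (minimum 10, total 15), on the 8 libraries of the 2 groups compared. SE is the log2 fold change divided by the square root of F. Levels are TMM-normalized CPM over all 16 libraries, and FPKM served to compare genes and to plot group means, with no test. NOISeq, the tool of the study, was not used. Single genes were also compared by a two-sided exact permutation test. The effect of labelled strain was tested as an interaction. DESeq2 1.42.0, limma-voom (limma 3.58.1), other scalings, filters, fold limits, and covariates, a joint fit of all 16 libraries, fits of each labelled strain by itself, and leaving out each library were alternatives. The fit without the 4 libraries that stand apart was added after seeing the data. The scripts were tested on simulated data.

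Positions come from GENCODE M21 (GRCm38), where all 73 members matched. The members and gene lists were chosen with earlier results of these data known. Genes named are members called in any comparison, tested members of the role lists, the 5 of highest mean FPKM, and the 3 largest rises and falls in CAC vs. NOR. Fbxo3, Fbxo28, Fbxw9, Fbxw17, and Fbxl7 were named after their values were seen. Of the tested members, 1 is counted in the totals but its own values are not reported here.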

Additional observations from a re-analysis of the deposited data

Results flagged for a closer look

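In 35 named members, each looked at in 4 groups, 9 values lay far from the other 3 libraries of their group. Chance gives about 1 in 20 groups, and 9 of the 140 groups looked at is near that rate. In NOR, replicate 1 was the highest for Fbxo6 (40.5 CPM against 28.7 to 29.4), the sample nearest to cachectic levels. In CAC, replicate 1 was the highest for Fbxl22 (11.02 CPM against 1.68 to 2.78), replicate 2 for Fbxw5 (108 CPM against 98.9 to 100.4), and replicate 3 for Fbxl19 (8.47 CPM against 5.51 to 5.79) and Fbxo5 (2.74 CPM against 0.661 to 0.889). In KD, replicate 3 was the highest for Fbxl17 (55.2 CPM against 33.5 to 36.8) and replicate 1 for Fbxo24 (0.515 CPM against 0.246 to 0.290). Also in KD, replicate 2 was the lowest for Fbxo34 (3.20 CPM against 7.51 to 8.25) and replicate 1 for Fbxw7 (16.7 CPM against 21.1 to 21.6).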

How the results depend on the processing

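With 4 libraries a group, small changes could not be separated from the spread between mice, and the 2 against 2 fits of 1 labelled strain have little power. The number of members called up in CAC vs. NOR was 1. It became 2 with total-count scaling (Fbxw4 added), 4 with no fold change limit, 0 with a limit of 2, 0 in the C57BL/6 libraries alone, and 0 in the BALB/c libraries alone, and ranged from 0 (without NOR replicate 2 or 3) to 2 (without NOR replicate 1, Fbxw4 added) when 1 library was left out. The number called down was 0. It became 1 with upper-quartile scaling or no fold change limit (Fbxl17), with DESeq2 or all 16 libraries in 1 fit (Fbxl16), and with the labelled strain as covariate (Fbxw7), and ranged from 0 to 3 when 1 library was left out, with 3 without CAC replicate 1 (Fbxl17, Fbxl22, and Fbxo3) and 1 without CAC replicate 2 or NOR replicate 4 (Fbxl17 in both). In AM vs. CAC, 1 member was called down. It became 0 with all 16 libraries in 1 fit, in each labelled strain alone, with a limit of 2, and without the 4 libraries that stand apart, and 2 with no fold change limit. The cause of these shifts was not tested. The other 261 recomputed counts, all of members past an FDR, strain interactions included, equalled the main count or were within 1.5 times it. Most of them were 0 where the main count was also 0, so they say little about stability. At an unadjusted p under 0.05, the 3 members with a strain interaction in KD vs. CAC became 2 with RLE and 1 with total-count scaling.

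The replicate block gave 1 member called up (Fbxo6) and 1 down (Fbxw7) in CAC vs. NOR and 0 called down in AM vs. CAC, where Fbxo6 kept -0.72 with an edgeR FDR of 0.124. Replicate numbers were not taken to pair the mice in the main test. Same-numbered libraries correlated at -0.189 to 0.601 in CAC vs. NOR and -0.453 to 0.0454 in AM vs. CAC. Differently numbered libraries were not compared, so these values cannot decide whether the mice were paired.

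Fbxo6 was called in 17 of 21 alternatives in CAC vs. NOR (0.50 to 0.96) and in 16 of 21 in AM vs. CAC (-0.86 to -0.59). Among Fbxo6, Fbxw2, Fbxw4, Fbxo7, and Fbxl17, signs turned in 5 fits, all of changes that were not past the test. Fbxl17 in AM vs. CAC was -0.055 in the C57BL/6 libraries alone. In the BALB/c libraries alone Fbxo7 was 0.038 with amiloride and 0.13 for KD vs. CAC. Leaving out 1 library gave -0.20 (without KD replicate 3) to 0.039 (without KD replicate 1) for Fbxo7 in KD vs. CAC, with 0.024 without KD replicate 4.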

Other observations

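Fbxo3, the ligase that removes Fbxl2 and was named after its values were seen, was at 109.7, 99.1, 104.6, and 100.9 CPM in NOR and at 90.0, 83.8, 62.0, and 59.3 CPM in CAC, without overlap (log2 fold change -0.49 ± 0.14, edgeR FDR 0.0572). The BABL/c-labelled CAC libraries were the lower pair. In AM it was at 58.9, 79.1, 107.6, and 90.3 CPM and in KD at 63.6, 93.5, 129.3, and 112.9 CPM. The difference of the change between labelled strains (BABL/c minus C57BL/6) was -0.50 ± 0.15 for CAC against NOR, 1.03 ± 0.23 for AM against CAC, and 1.12 ± 0.30 for KD against CAC, with unadjusted p of 0.0153, 0.00347, and 0.00800 and edgeR FDR of 0.940, 0.274, and 0.854, so that none passed over all genes. These 3 comparisons share the CAC libraries, and of the 4 libraries that stand apart, AM replicate 1, KD replicate 1, and CAC replicate 4 were the lowest of their groups and AM replicate 3 was the highest of AM. Their part in these values was not tested.

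For Fbxw7 that difference was -0.17 ± 0.29 for CAC against NOR (unadjusted p = 0.572, edgeR FDR 0.999), 1.08 ± 0.30 for AM against CAC (unadjusted p = 0.0104, edgeR FDR 0.331), and 0.81 ± 0.27 for KD against CAC (unadjusted p = 0.0229, edgeR FDR 0.854), again in comparisons that share the CAC libraries. Its levels were 33.3, 26.6, 24.7, and 18.4 CPM in NOR and 22.2, 19.5, 14.3, and 12.2 CPM in CAC, with the BABL/c-labelled pair lower in both groups. In AM it was at 17.95, 16.2, 19.5, and 26.9 CPM and in KD at 16.7, 21.1, 21.6, and 21.2 CPM.

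The other members at an unadjusted interaction p under 0.05 were Fbxl22 (2.735 ± 1.00, unadjusted p = 0.0317), Fbxl17 (0.83 ± 0.33, unadjusted p = 0.0413), and Fbxo28 (0.42 ± 0.17, unadjusted p = 0.0479) for AM against CAC, with edgeR FDR of 0.373, 0.391, and 0.399. For KD against CAC the other was Fbxo42 (0.58 ± 0.24, unadjusted p = 0.0465, edgeR FDR 0.866).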
